A study of Mus musculus with 4 samples.

Results

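The 46 genes described here encode the contractile, calcium-handling and regulatory proteins of skeletal muscle, and they were measured in RNA from mouse molar teeth. They were chosen by name, as the genes of the sarcomere and of fibre type whose symbol is carried by at least 1 probe set that names a single gene. All 46 were measured, among 18193 such genes on the array. The RNA was total RNA of a single pool of molars from 60 untreated Swiss-Webster pups of both sexes, taken on postnatal days 1 to 10, and it was hybridised to 4 Affymetrix Mouse Genome 430 2.0 arrays. The teeth were extracted by hand and all days were mixed, so no value can be assigned to an age or to a cell type. The 4 arrays form 1 group, so the spread between them is technical, and p-values measure that spread only. Control tissues belong to the study's design but were not analysed here, so each gene is compared with the background of its own array. In pooled tissue, fewer cells of a type and less RNA per cell cannot be told apart.

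A sarcomere, the contractile unit of striated muscle, is built from thick filaments of myosin and thin filaments of actin, and calcium binding to troponin on the thin filament switches contraction on. Most of its proteins come as isoforms from separate genes. Embryonic and perinatal isoforms are made before and shortly after birth and give way to slow isoforms in fatigue-resistant fibres or fast isoforms in quickly contracting fibres. The muscle regulatory factors are transcription factors that start this programme in myoblasts, and they are made in much smaller amounts than the contractile proteins.

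Values are MAS5 signals, a brightness per probe set in arbitrary units on a linear scale. A probe set counted as above background if it exceeded, on all 4 arrays, the 95th percentile of 86 probe sets for olfactory, vomeronasal and taste receptor genes on the same array. This threshold was 996 to 1295 over the arrays. A gene was above background if any of its probe sets was, and its value is that of its probe set with the highest mean log2 signal. Probe set names that end in _s_at or _x_at mark sequence that other genes may share, and those in _a_at mark sequence common to several transcripts of a single gene; both are called shared-sequence suffixes below. Brightness depends on the probe, so signals of different genes are not amounts of mRNA and are set against the threshold only.

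Of the 46 muscle genes, 22 (47.8%) were above background, compared with 51.6% of all genes, so the share as a whole was near that of any gene. The median log2 signal was 10.12 for the muscle genes and 10.69 for all genes. The calls were unevenly spread over the roles. Fast isoforms were above background for 10 of 15 genes, developmental isoforms for 4 of 6, genes shared by all fibres for 5 of 10, slow isoforms for 3 of 10 and regulatory factors for 0 of 5. Here and below, Pax7, the satellite cell factor, is counted with the regulatory factors. The limma test, a one-sided test of log2 signal over the threshold on the 4 arrays, called 21 of the 46 at an adjusted p under 0.05, against 51.1% of all genes. The difference between roles was not tested, because genes are not replicates. All 8 tooth markers, among them the enamel gene Amelx at 198666 ± 42644 (SD, n = 4 arrays) and the collagen gene Col1a1 at 179786 ± 33242, were above background on these arrays labelled as molars.

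**Figure D1:**
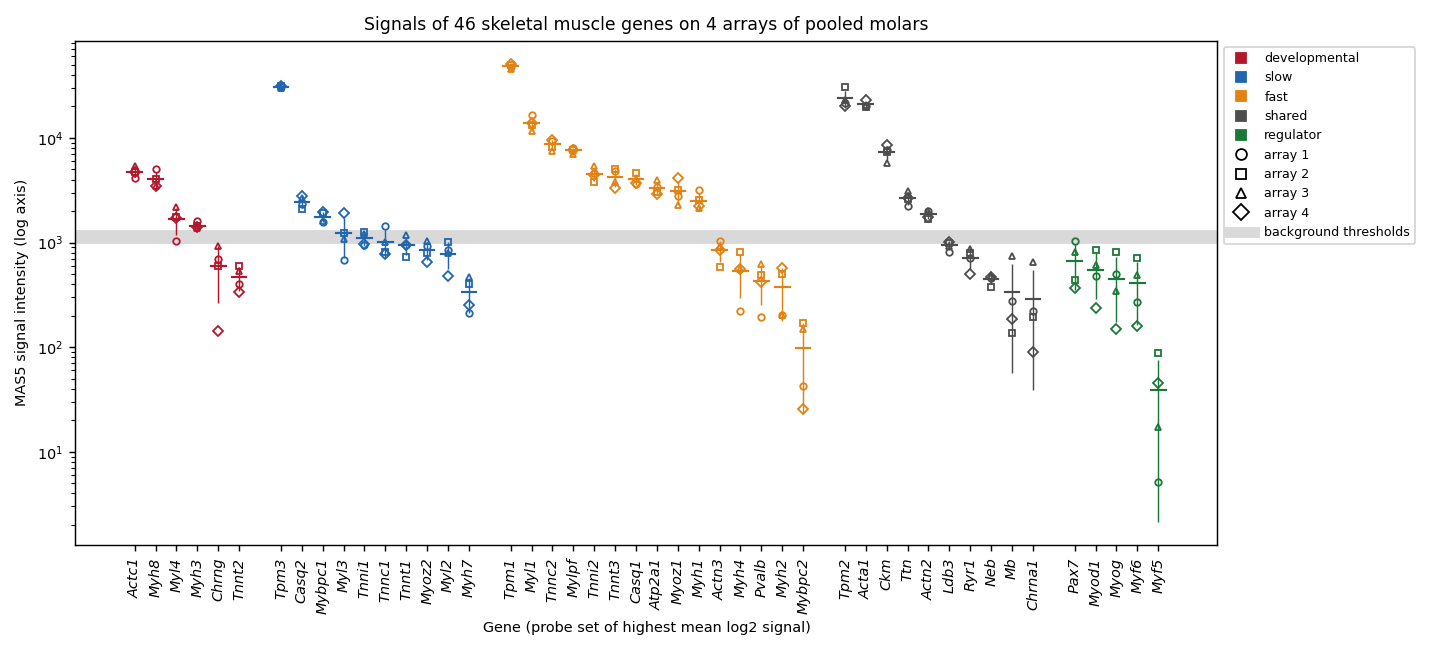
Signal of each muscle gene on arrays 1 to 4 (open symbols, log axis), with the mean (horizontal line) and SD (vertical line, n = 4), grouped by role and ordered by mean. The grey band spans the 4 background thresholds, from 996 to 1295. The means of the 22 genes above background lie over the band, and all 5 regulatory factors have means below it.

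Array 4 correlated least with the others. Its mean Pearson's r with arrays 1 to 3, taken across the probe sets above background, was 0.972, against 0.975 to 0.977. Without array 4 the count of muscle genes was again 22 of 46, against 54.1% of all genes, and each role kept its count. Under this rule leaving out an array can add calls but cannot remove any. The unchanged count therefore shows only that no muscle gene was added. The SD of log2 signal over the 4 arrays had a median of 0.195 for the 22 muscle genes above background and 0.655 for the 24 others, against 0.16 and 0.62 for all genes of the same kind.

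Promoter sequence is shown for 4 members because it is a feature the choice of genes did not use, and because these genes stand on both sides of the background threshold. RefSeq promoter windows (GRCm38.p6), which run from 250 bases before to 50 bases after an annotated start, matched 39 of the 46 genes, with 48 windows. Of these, 19 genes were above background and 20 were not. Each sequence is given 5′ to 3′ on the gene's strand, and capitals mark matches, on either strand, to the motif CAGCTG (an E-box, bound by the muscle regulatory factors), to the CArG box of serum response factor, to TATAAA or to the MEF2 site. Acta1 lies at chr8:123894726-123895025 on the minus strand, Actc1 at chr2:114052826-114053125 on the minus strand, Myh8 at chr11:67276874-67277173 on the plus strand and Myh4 at chr11:67237562-67237861 on the plus strand.
Acta1 promoter: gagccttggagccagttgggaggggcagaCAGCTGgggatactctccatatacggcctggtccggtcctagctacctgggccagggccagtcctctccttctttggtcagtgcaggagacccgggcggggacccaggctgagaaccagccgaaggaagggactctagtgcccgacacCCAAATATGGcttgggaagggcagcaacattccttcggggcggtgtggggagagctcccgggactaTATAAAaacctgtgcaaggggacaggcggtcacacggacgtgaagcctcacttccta
Actc1 promoter: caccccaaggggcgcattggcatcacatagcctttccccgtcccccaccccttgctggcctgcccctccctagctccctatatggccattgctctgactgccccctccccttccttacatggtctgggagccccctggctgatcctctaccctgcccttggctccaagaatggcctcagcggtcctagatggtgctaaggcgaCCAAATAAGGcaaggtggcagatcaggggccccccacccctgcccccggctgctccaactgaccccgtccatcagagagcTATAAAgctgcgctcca
Myh8 promoter: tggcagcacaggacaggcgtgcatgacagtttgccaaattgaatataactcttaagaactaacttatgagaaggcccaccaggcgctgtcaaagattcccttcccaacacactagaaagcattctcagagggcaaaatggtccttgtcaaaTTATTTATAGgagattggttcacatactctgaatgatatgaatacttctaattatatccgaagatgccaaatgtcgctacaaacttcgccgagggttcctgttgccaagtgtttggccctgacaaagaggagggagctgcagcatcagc
Myh4 promoter: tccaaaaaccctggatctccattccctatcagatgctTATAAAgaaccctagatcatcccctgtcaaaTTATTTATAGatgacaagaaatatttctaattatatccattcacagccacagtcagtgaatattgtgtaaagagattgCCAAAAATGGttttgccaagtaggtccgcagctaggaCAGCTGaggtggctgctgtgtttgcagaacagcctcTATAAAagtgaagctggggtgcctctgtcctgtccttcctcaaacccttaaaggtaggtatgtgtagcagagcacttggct
Acta1, Actc1 and Myh8 were above background and Myh4 was not, although the Myh4 window is the one of these 4 that holds every motif searched. In Myh8 and Myh4 a reverse-strand TATAAA lies inside the MEF2 match. The marked TATAAA begins 7 bases before the annotated start in Acta1 and 33 bases after it in Actc1.

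Motifs of muscle promoters were found on both sides of the threshold. CAGCTG was present in 9 of 20 windows (45%) of genes above background and in 11 of 28 windows (39.3%) of genes that were not, against 16.3% of all 32851 promoter windows. The CArG box was in 2 of 20 and 4 of 28 windows, against 1.63% of all windows, and the MEF2 site in 4 of 20 and 3 of 28, against 3.19%. TATAAA was in 6 of 20 and 5 of 28 windows, against 13.6%. Some genes have several windows. Counted by gene, CAGCTG was in 9 of 19 genes above background and 8 of 20 that were not, against 4944 of all 27025 genes. The CArG box was in 2 and 3 of these genes, the MEF2 site in 4 and 3, and TATAAA in 6 and 5. A match describes these letters only and is not a binding site.

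Among the developmental isoforms, the perinatal myosin, the fetal actin and the embryonic light chain were above background, and the embryonic myosin was just above it. Myh8, the perinatal myosin heavy chain, had signals of 5016, 4090.5, 3475 and 3432 on arrays 1 to 4, a mean of 4003 ± 739 (SD, n = 4). Actc1, the actin of heart and of fetal skeletal muscle, had 4106, 4748, 5402 and 4694. Every one of these 8 values lay over the highest threshold of 1295. The mean log2 ratio of signal to threshold was 1.77 ± 0.15 for Myh8 and 2.03 ± 0.12 for Actc1 (SE), with limma adjusted p-values of 1.42e-10 and 2.15e-13, adjusted over all 18193 genes.

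Myh3, the embryonic myosin heavy chain, had 1595, 1452, 1363 and 1405, and Myl4, the light chain of embryonic muscle and of the heart's atria, had 1029, 1771, 2179 and 1698. Both genes exceeded each array's own threshold, Myl4 by its other probe set as well, which gave 1618, 1579, 1608 and 1484. Their margins were small. The log2 ratio to threshold was 0.33 ± 0.21 for Myh3, with a limma adjusted p of 0.121 that did not pass 0.05, and 0.48 ± 0.20 for Myl4, with 0.0247. With the 99th percentile as threshold, which 48.2% of all genes passed, neither Myh3 nor Myl4 was above background and the developmental count was 2 of 6. Tnnt2, the troponin T of heart and embryonic muscle, had 464 ± 119 by its brightest of 3 probe sets, and Chrng, the fetal subunit of the acetylcholine receptor, had 589.9 ± 328 by its brightest of 3. Neither exceeded the threshold on any array.

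Fast isoforms of the light chains and of troponin were above background by a wide margin. Myl1, the fast essential light chain, had signals of 16629, 13141, 11536 and 13991, and Mylpf, the fast regulatory light chain, had 8086, 7742, 6996 and 7642. Tnnc2, the calcium-binding subunit of fast troponin, had 9308, 8208, 7498 and 9575. All of these stood several-fold over the threshold, at 11.8-fold for Myl1, 6.57-fold for Mylpf and 7.44-fold for Tnnc2 (geometric means over 4 arrays), with limma adjusted p-values of 1.1e-17, 5.93e-16 and 1.94e-16.

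The other fast troponin subunits were above background too. Tnnt3, which anchors troponin to tropomyosin, had 4829, 4992, 3813 and 3306, and Tnni2, the inhibitory subunit, had 4616, 3794, 5380 and 4466. A second Tnni2 probe set, without a shared-sequence suffix, gave 3211, 4386, 2848 and 4193, while the remaining one stayed at 104 ± 97.8. The log2 ratios to threshold were 1.85 ± 0.15 for Tnnt3 and 1.97 ± 0.13 for Tnni2, with limma adjusted p-values of 6.22e-11 and 9.05e-13, so all 3 fast troponin genes were above background. Of the 4 slow or cardiac troponin genes among the members, Tnnt1, Tnni1, Tnnc1 and Tnnt2, none was, and the limma test called none of them.

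Calcium handling of fast fibres was represented by a pair of genes above background. Casq1, the calcium-storing protein of the fast sarcoplasmic reticulum, had 3654, 4637, 4082 and 3696, and Atp2a1, the calcium pump of fast fibres, had 3358, 3073, 3997 and 2906. Their log2 ratios to threshold were 1.79 ± 0.13 and 1.52 ± 0.14, with limma adjusted p-values of 1.38e-11 and 8.03e-10. Pvalb, the calcium buffer of fast fibres, was not above background, at 431 ± 179.8, and exceeded the threshold on 0 arrays. Myoz1, a Z-disc protein of fast fibres, had 2769, 3169, 2263 and 4145 on 1 probe set and 64.1 ± 27 on its other, so its call rests on the first, with a limma adjusted p of 2.58e-08.

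The adult fast myosin heavy chains gave a mixed and less certain picture. Myh1, the IIx chain, had 3177, 2536, 2130.3 and 2214, with a limma adjusted p of 3.02e-06. Its second probe set gave 2719, 1974, 2158 and 2258, but the names of these probe sets end in _a_at and _x_at, and the probe set without such a suffix had 58, 199, 66.6 and 51.8, all below threshold. Myh2, the IIa chain, had 372 ± 196, and Myh4, the IIb chain, had 535 ± 239.98. The sarcomeric heavy chains are close paralogues, so the Myh1 signal is uncertain as a measure of that gene alone. In the mouse assembly Myh3, Myh2, Myh1, Myh4 and Myh8 follow one another on chromosome 11 with no other protein-coding gene between them, and of the 3 above background, Myh3, Myh1 and Myh8, only Myh8 kept that call under every alternative run. The Myh1 call was lost without shared-sequence suffixes, and the Myh3 call was lost by limma and at the 99th percentile.

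Tpm1, the alpha tropomyosin of fast fibres, had 48093, 49495, 45335 and 51238, which is 41.9-fold over the threshold. Of its 4 probe sets 3 were above background, and the other had 405 ± 260. Tropomyosin genes also make isoforms in smooth muscle and in non-muscle cells, and their part in these signals was not tested. Without Tpm1, Tpm2 and Tpm3 the count of muscle genes above background was 19 of 43 (44.2%). The remaining fast genes were not above background. Actn3, the fast-fibre alpha-actinin, had 849 ± 195 and exceeded the threshold on 1 array, and Mybpc2, the fast myosin-binding protein C, had 97.2 ± 73.7 and exceeded it on 0.

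Slow isoforms were above background for Tpm3, Casq2 and Mybpc1. Tpm3, the slow-fibre tropomyosin, had 30480.4, 31474, 29793 and 31659.9 by its brightest of 5 probe sets, of which 3 were above background, and stood 26.7-fold over the threshold. Its single probe set without a shared-sequence suffix had 255 ± 145 and was not above background. Casq2, the calcium-storing protein of slow fibres and heart, had 2337, 2072, 2666 and 2774, and Mybpc1, the slow myosin-binding protein C, had 1584, 1914, 1593 and 1940.2. Limma adjusted p-values were 8.41e-07 for Casq2 and 0.00417 for Mybpc1. The Casq2 probe set has the suffix _s_at, and Mybpc1 lost its call when the median of its 3 probe sets was used, a choice under which 19 of 46 muscle genes and 39.3% of all genes passed.

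Genes for the contractile proteins that define slow fibres were at or below the threshold. Myh7, the slow and cardiac myosin heavy chain, had 213, 398, 469 and 252, and exceeded the threshold on no array. The 2 probe sets that name Myh7 together with the cardiac gene Myh6 exceeded it on 0 arrays as well. Myl2, the slow regulatory light chain, had 782 ± 225, Myl3, the slow essential light chain, had 1222 ± 506, and Tnnt1, the slow troponin T, had 951 ± 190.03. Of these, Myl3 exceeded the threshold on 2 arrays and the others on none. Tnni1 and Tnnc1, the slow inhibitory and calcium-binding troponin subunits, had 1095 ± 161 and 1009 ± 294 and exceeded it on 1 array each, while Myoz2, a Z-disc protein of slow fibres and heart, had 852 ± 167 and exceeded it on 0.

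Of the 7 slow genes not above background, 5 lay close below the threshold, and the slow count depends on where it is set. With the 75th percentile of the background probe sets, which 65.3% of all genes passed, 8 of 10 slow genes were above background, with Myl3, Tnnt1, Tnni1, Tnnc1 and Myoz2 added, against 11 of 15 fast genes. At the 99th percentile, which 48.2% of all genes passed, the counts were 3 of 10 and 10 of 15. The order of slow and fast shares is therefore reversed at the 75th percentile.

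**Figure D2:**
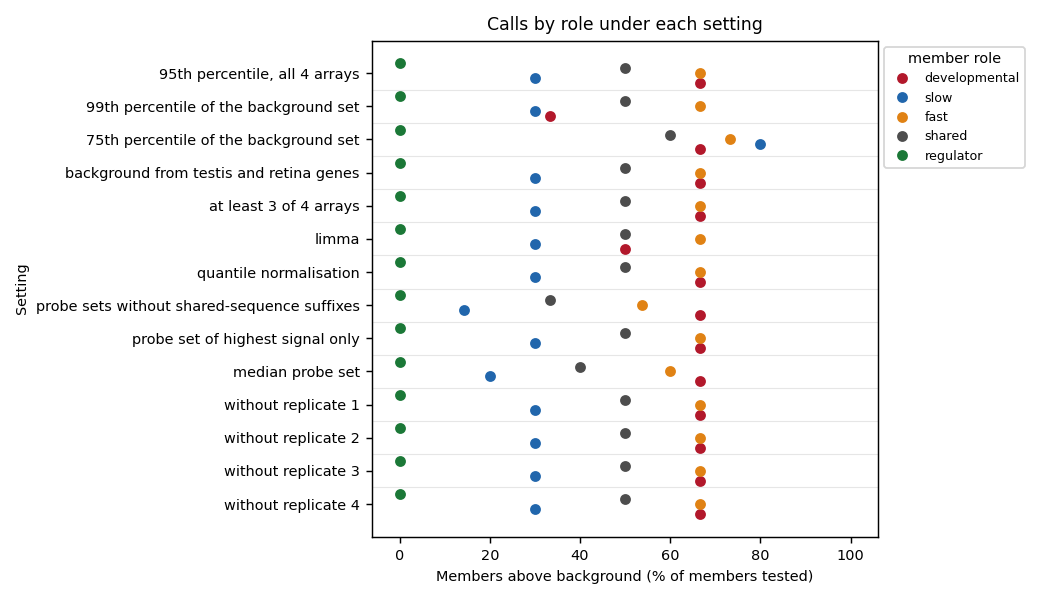
Percent of the tested members of each role that were above background under each setting, 1 point per role and setting. Fast genes stand at 66.7% and slow genes at 30% with the 95th percentile on all 4 arrays, slow genes stand at 80% with the 75th percentile, and regulatory factors stand at 0% throughout.

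Genes used by all fibres were divided. Acta1, the actin of skeletal muscle thin filaments, had signals of 20303, 19630, 20780 and 22842, and Ckm, the muscle creatine kinase that regenerates ATP, had 7650.5, 7264, 5709 and 8482. These stood 18-fold and 6.23-fold over the threshold, with limma adjusted p-values of 5.35e-20 and 3.92e-15. A second Ckm probe set had 1486, 2192, 1799 and 1000 and missed the threshold on array 4. Tpm2, beta tropomyosin, had 21650, 30385, 23143 and 20395, and all 4 of its probe sets were above background, the brightest by 20.4-fold.

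Among giant and Z-disc proteins, Ttn and Actn2 were above background and Neb and Ldb3 were not. Ttn, the giant protein titin that spans the sarcomere from Z-disc to M-band, had 2219, 2585, 3125 and 2667 on 1 of 6 probe sets, and the other 5 were not above background. The log2 ratio of the brightest to threshold was 1.18 ± 0.15, with a limma adjusted p of 1.12e-07. Actn2, the alpha-actinin of the Z-disc, had 1988, 1669, 2014 and 1741, over the threshold on every array, with a limma adjusted p of 0.0013. Neb, nebulin of the thin filament, had 445 ± 46.6, and Ldb3, a Z-disc scaffold, had 941 ± 93 by its brightest of 3 probe sets. Both exceeded the threshold on 0 arrays, whereas titin's partner in the Z-disc, Actn2, exceeded it on all 4.

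Ryr1, the calcium release channel, had 719 ± 161, Mb, the oxygen store myoglobin, had 338 ± 281, and Chrna1, the muscle acetylcholine receptor subunit, had 289.5 ± 251. None of them exceeded the threshold on any array.

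No muscle regulatory factor was above background, and Pax7, counted with them, was not either. Myod1, which commits cells to the muscle lineage, had 544 ± 256, Myog, which drives their differentiation, had 451 ± 278, and Myf6 had 408 ± 246. Myf5, expressed early in myoblasts, had 38.9 ± 36.7. Pax7, the satellite cell factor, had 661 ± 312 and exceeded the threshold on 1 array. The limma test also called 0 of the 5, and 0 at an unadjusted p under 0.05. A signal below the threshold is a bound set by these probes and does not show that the transcript was absent.

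Most muscle genes rest on few probe sets. Of the 46, 27 had 1 probe set, and 12 of those 27 were above background, against 35.2% of all genes with 1 probe set. Genes with more probe sets have more chances to pass. With 2 probe sets 3 of 8 muscle genes passed, against 60.1% of all such genes, with 3 it was 3 of 7 against 73.4%, and with 4 or more it was 4 of 4 against 82.1%. For 8 of the 19 genes with several probe sets, some were above background and others were not.

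The members were covered by 83 probe sets, 25 with a shared-sequence suffix and 58 without. Of those with a suffix 15 (60%) were above background, and of those without 17 (29.3%), compared with 59% and 37.6% over all probe sets naming 1 gene. Restricted to probe sets without a suffix, 15 of 40 muscle genes were above background, against 46.6% of all genes so tested. Myh1, Tpm3 and Ttn were then not above background. Casq2, Myl1, Tnnt3 and Acta1 have no such probe set, nor do Tnnt1 and Tnni1.

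**Figure D3:**
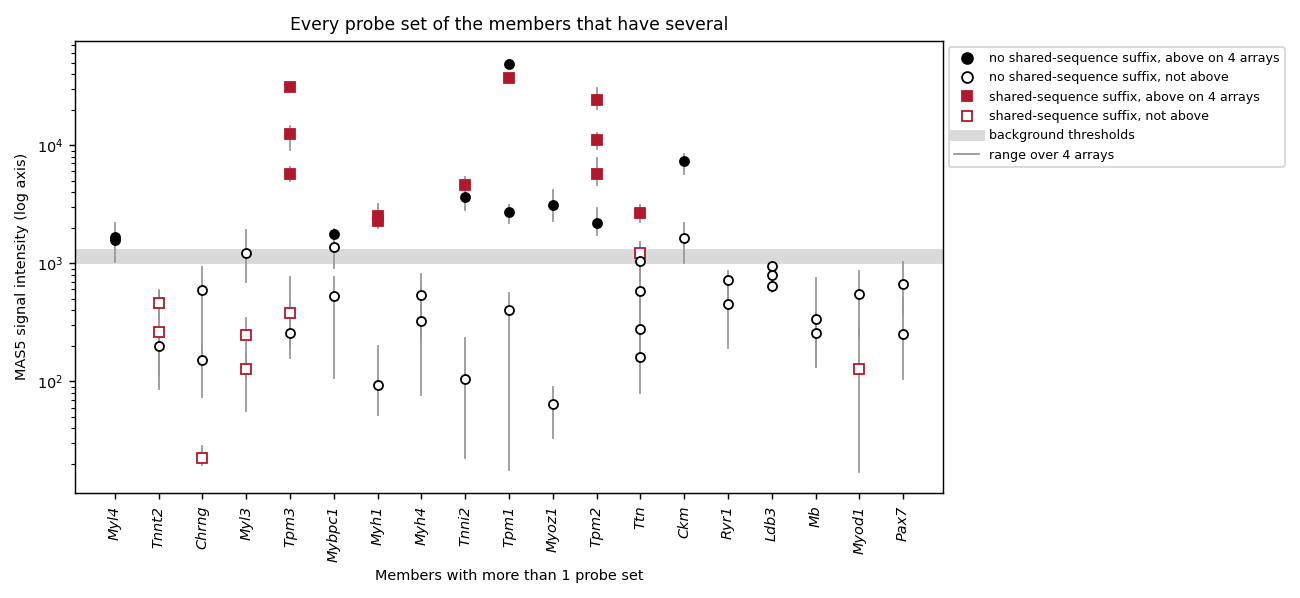
Mean signal (log axis) of every probe set of the 19 muscle genes that have several, with the range over 4 arrays as a grey line; filled symbols were above background on all 4 arrays, and squares carry a shared-sequence suffix. For Myh1 and Tpm3 the probe sets above background are all squares, and for Ttn 1 of 6 probe sets is filled.

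Further genes of striated muscle were read from lists that hold none of the members. Of 20 measured genes of the Z-disc, M-band and filament ends, 1 was above background, namely Smyd1, a methyltransferase needed for sarcomere assembly, through 1 of its 6 probe sets. The brightest of the 6 had 1805, 2545, 2325 and 1087 and missed the threshold on array 4, so the call was lost when only the brightest probe set was read. With the median probe set (39.3% of all genes) and at the 99th percentile (48.2%) the count was 0 of 20. Csrp3 and Des, for desmin, the intermediate filament of muscle, had 1236, 1985, 1458 and 919.9 and 1543, 1599.7, 1635 and 992. Both exceeded the threshold on arrays 1 to 3 and not on array 4. Without array 4 the count was 5 of 20, with Des, Tcap, Csrp3 and Myot added, against 54.1% of all genes, and at the 75th percentile it was 10 of 20, against 65.3%. The limma test called 1 of the 20, against 51.1% of all genes.

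Triad and calcium release genes were above background for 6 of 12, against 51.6% of all genes. Stac3, needed to couple the voltage sensor to calcium release, had 10699.8, 6683, 7556 and 8908, and Hrc, a calcium-binding protein of the reticulum, had 2933 ± 123. Cacna1s, the voltage sensor itself, had 748 ± 45.8, and its subunit Cacng1 had 1010.3 ± 214, and neither was above background. The count was 4 of 12 by limma (51.1% of all genes), where Cacnb1 and Jph1 had adjusted p-values of 0.11 and 0.0854. It was also 4 of 12 at the 99th percentile (48.2%). It was 3 of 12 with the median probe set (39.3% of all genes) and 11 of 12 at the 75th percentile (65.3%).

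Neuromuscular junction genes gave 2 of 9, against 51.6% of all genes. Lrp4, the agrin receptor, had 3272 ± 503, and Dok7, an activator of the receptor kinase MuSK, had 2041 ± 671. The Dok7 value is from 1 of 2 probe sets and carries a shared-sequence suffix. Its call was lost without such probe sets, leaving 1 of 8 genes, against 46.6% of all genes. It was also lost with the median probe set, leaving 1 of 9, against 39.3%. Ache and Chrnb1 had 344 ± 156 and 680.4 ± 36.2, below the threshold. Lrp4 is also made in tooth epithelium.

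Dystrophin complex genes gave 6 of 9, against 51.6% of all genes, with Dag1, for dystroglycan, at 15618 ± 969.6 and Sspn at 5316 ± 245. With the median probe set (39.3% of all genes) the count was 4 of 9. Sgca, the muscle-restricted sarcoglycan, had 629.5 ± 279, and Cav3, the muscle caveolin, had 187 ± 20.6. Neither Sgca nor Cav3 was above background, and dystroglycan is made by many cell types.

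Genes of muscle energy metabolism gave 6 of 10, against 51.6% of all genes, with Car3, a carbonic anhydrase of muscle and fat, at 17388 ± 1296 and Pfkm, muscle phosphofructokinase, at 10863 ± 885. Ampd1 and Ckmt2 had 188 ± 105 and 427 ± 216 and were not above background. With the median probe set (39.3% of all genes) the count was 3 of 10, with Fabp3, Cox6a2 and Phka1 lost. Without array 4 (54.1% of all genes) it was 8 of 10.

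Genes upstream of the regulatory factors and of myoblast fusion gave 4 of 11, against 51.6% of all genes. Mef2a had 14777 ± 1043 and Mef2d 6072 ± 922, and both are transcription factors made in many tissues. Cdh15, the muscle cadherin, and Eya1 had 875 ± 267 and 712 ± 66.5 and were not above background. Of 5 measured factors of head muscle specification 1 was above background, against 51.6% of all genes. This was Tbx1, which also acts in dental epithelium, at 5929 ± 526, by a probe set whose shared-sequence suffix is _a_at. Isl1 and Lhx2 had 191 ± 131 and 46.1 ± 22.1.

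Markers of the other muscle types were examined because several members are shared with them. Of 8 genes restricted to the heart, 0 were above background on all 4 arrays. Myh6, the atrial myosin, had 406 ± 219. Mybpc3, the cardiac myosin-binding protein C, had 1692, 2071, 1949.8 and 1158 and missed the threshold on array 4. Without array 4, 1 of 8 was therefore above background, against 54.1% of all genes. The limma test called Mybpc3, with an adjusted p of 0.0159, and no other gene of this list, also at an unadjusted p under 0.05.

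Smooth muscle genes were above background for 5 of 11, against 51.6% of all genes. Acta2, smooth muscle actin, had 27755, 28525, 31182 and 29166 on 1 of its 3 probe sets, which carries a shared-sequence suffix, and the other probe sets were not above background. Acta2 lost its call without such probe sets, where the count was 3 of 9, against 46.6% of all genes. It also lost its call with the median probe set (39.3% of all genes), where the count was 3 of 11, with Mylk lost as well. Cald1, for caldesmon, had 28347 ± 2594. Actg2, at 1475 ± 274, exceeded the threshold on arrays 1 to 3 but not on array 4, where it had 1203, so it was not above background. Without array 4 it was, and the count was 6 of 11, against 54.1% of all genes. Cnn1, for calponin, had 83.8 ± 30.9 and was not above background. All 13 non-muscle paralogues of the members were, among them Actb at 148924 ± 28811 and Actg1 at 113791 ± 9629.

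**Figure D4:**
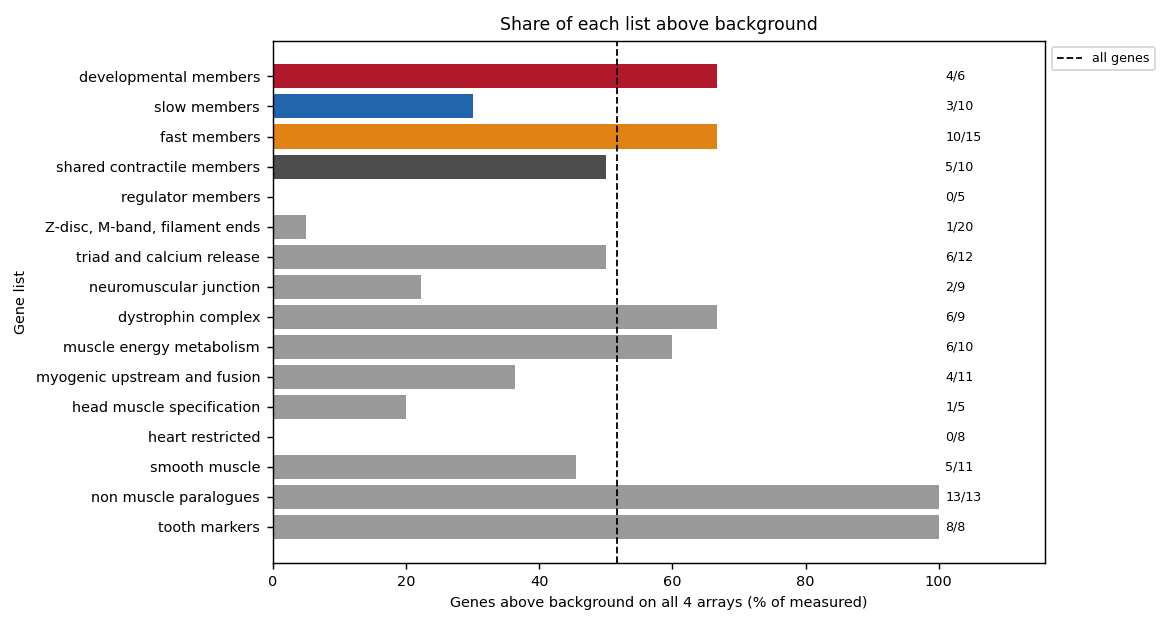
Percent of measured genes above background on all 4 arrays in each role of the members (coloured) and in the other lists (grey), with counts at the right and a dashed line at 51.6% for all genes. Fast and developmental members stand at 66.7%, the Z-disc list at 5%, and the heart list and the regulatory factors at 0%.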

How the data were processed

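The deposited values are signal intensities of 45101 probe sets on each array, which the authors computed with MAS5, per the submitters' processing notes. For MAS5, no version or setting is given in the sources used here, and no detection calls were used. Each array's mean without the lowest and highest 2% of signals is 2500, so the arrays had been scaled. Arrays have no read depth, and their number, 4, limits precision. Replicate numbers follow the sample titles. Nothing states whether the arrays were labelled separately.

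Gene names came from the platform annotation. Probe sets naming 1 gene (34945) were used, and those naming several (932) and controls (64) were not. All 46 members matched the RefSeq gene table by ID and symbol. The members, lists and background rule were chosen with earlier results of these data known. Every member is named; each other list contributes its 2 brightest genes above background and up to 2 not above it in alphabetical order. In addition Tcap, Myot, Cacnb1, Jph1, Fabp3, Cox6a2, Phka1 and Mylk were named after their values were seen. Of 122 entries in 11 other lists, 116 were measured and 6 are not analysed here.

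Besides the all-array call, log2(signal / threshold) was tested against 0, one-sided, with limma 3.58.1 (R 4.3.3, mean-variance trend, Benjamini-Hochberg over all genes), treating the threshold as known. Alternatives were other thresholds and background sets, 3 of 4 arrays, quantile normalisation, other probe set choices and leaving out each array. Leaving out the tropomyosins, and the alternatives for the limma count, were chosen after seeing the data.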

Additional observations from a re-analysis of the deposited data

Results flagged for a closer look

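Values on 4 arrays were searched for 1 array far from the other 3, in 103 sets (the 46 members, the named genes of other lists and the medians of lists). Of these, 4 met the criterion, where chance gives about 1 in 20 (5.15 of 103), and none of the 46 members did. Des had a log2 signal of 9.95 on array 4, against 10.59 to 10.67 on the others. Ckmt2 had 6.81 on array 2, against 8.85 to 9.15, and Myh6 had 9.52 on array 3, against 8.13 to 8.34, both below the threshold. The median log2 signal of the heart list was 8.93 on array 2, against 8.46 to 8.52.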

How the results depend on the processing

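The count of 22 of 46 muscle genes ranged from 15 of 40 (probe sets without shared-sequence suffixes) to 29 of 46 (75th percentile of the background set) over the other settings, and was 22 without each array in turn. By limma the count was 21, against 51.1% of all genes. The limma test gave 20 to 21 without each array, 19 at the 99th percentile and 30 at the 75th. For these variants the share of all genes was not counted, so they are not read as results about the muscle genes. The developmental count fell from 4 to 2 at the 99th percentile. The slow count rose from 3 to 8 at the 75th percentile and was 1 of 7 without shared-sequence suffixes, where the count of genes shared by all fibres was 3 of 9. All other role counts stayed within 1.5 times of their value. Of the other lists, the dystrophin complex, non-muscle paralogue and tooth counts stayed within 1.5 times as well. The counts of the remaining lists moved further under at least 1 alternative. At the 75th percentile (65.3% of all genes), genes upstream of the regulatory factors reached 8 of 11 and head muscle specification 2 of 5. Of the 22 genes above background 15 kept that call under every alternative that could be run for them, and of the 24 others 17 did. For Myh3, Myl4, Mybpc1, Myoz1, Ttn, Tpm3 and Myh1 the call was lost under at least 1. Several alternatives could change a call in a single direction only. Leaving out an array, 3 of 4 arrays and the 75th percentile cannot remove a call. The 99th percentile, the brightest probe set alone and probe sets without shared-sequence suffixes cannot add a call. The same tally over all genes was not made. No paired analysis was possible because there is 1 group. Signals near the threshold limit all counts: the log2 ratio to threshold of Myh3, 0.33 ± 0.21 (SE), is not resolved by 4 arrays.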
